A study of Mus musculus with 4 samples.

Results

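The regulators of globose basal cells and neuronal precursors described here are 7 genes, *Neurog1*, *Neurod1*, *Insm1*, *Hes6*, *Kit*, *Lgr5*, and *Ezh2*, taken by name from the 24421 genes of the expression table. They were measured by RNA-seq in 4 libraries of cells from the main olfactory epithelium (MOE) of mice, sorted by fluorescence-activated cell sorting. In the TAAR enhancer 1-GFP line, GFP-positive cells were compared with GFP-negative cells, and in the TAAR enhancer 2-tdTomato line, tdTomato-positive cells with tdTomato-negative cells. Each transgene joins an enhancer of the trace amine-associated receptor (*Taar*) gene cluster to the Hsp68 minimal promoter and a fluorescent reporter, was inserted with PiggyBac, and was kept as 1 founder line. The lines address whether each enhancer is enough to drive a nearby gene in OSNs, the olfactory sensory neurons. Reporter-negative and reporter-positive cells of a line both carry its transgene. The labels call the mice adult C57BL/6, whereas the study's reporting summary gives juvenile ages for the reporter mice and mixed backgrounds for the mouse lines in general, and the number of mice behind a library is not given in the sources used here. Enhancer, reporter protein, and founder line change together between the lines, so their effects cannot be told apart. Each group has 1 library, so no difference within a line has a replicate error, and no p-values were calculated.

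The olfactory epithelium makes new OSNs throughout life. Horizontal basal cells are its reserve stem cells, and globose basal cells are the dividing progenitors that give rise to neuronal precursors, then to immature and mature OSNs. Proneural basic helix-loop-helix (bHLH) factors act in sequence along this path, with *Neurog1* before *Neurod1*. The zinc finger repressor *Insm1* promotes the exit of progenitors from division, and *Hes6* is a member of the Hes family that opposes *Hes1* and favours neuronal differentiation. *Kit* and *Lgr5* encode cell surface receptors found on basal progenitors, and *Ezh2* encodes the catalytic subunit of Polycomb repressive complex 2, which methylates histone H3 and is abundant in dividing cells.

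All 7 genes were found in the GENCODE M21 annotation of GRCm38, the build also called mm10. *Neurog1* lies at chr13:56250478-56252163 and *Insm1* at chr2:146221921-146225020, each as a gene of 1 exon. *Neurod1* lies at chr2:79452521-79456751 with 2 exons and *Hes6* at chr1:91411483-91414038 with 4. *Kit* lies at chr5:75574916-75656722 with 21 exons, *Ezh2* at chr6:47530139-47595341 with 20, and *Lgr5* at chr10:115450311-115587780 with 18. *Lgr5* is the only one of the 7 on the chromosome of the *Taar* cluster, 91.3 Mb beyond the end of *Taar9*. *Neurod1* lies within the span of *Cerkl* on the same strand, and 5.71% of the 50-base windows of its transcripts also occur in transcripts of other genes, so reads could be split between them. *Cerkl* had 19.6 TPM in GFP-negative, 9.66 in GFP-positive, 25.1 in tdTomato-negative, and 32.3 in tdTomato-positive cells, an order unlike that of *Neurod1* given below. The other 6 genes shared at most 0.754% of their windows, the value of *Insm1*.

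Promoter sequences are shown for *Neurod1* and *Ezh2*, which had lower deposited TPM in the reporter-positive cells of both lines, and for *Hes6*, the member with the highest level in every reporter-positive library. They are the RefSeq sequences of GRCm38.p6 from 250 bases before to 50 bases after the transcription start, written 5′ to 3′ on the strand of the gene, and 5 of the 7 genes had an entry in the promoter table. The windows are chr2:79456587-79456886 for *Neurod1*, chr6:47594981-47595280 for *Ezh2*, and chr1:91413173-91413472 for the start of *Hes6* that lies inside the gene, all on the minus strand. Capitals mark matches, on either strand, to the E-box CANNTG bound by bHLH factors, the CCAAT box (CCAAT, or ATTGG on the other strand), and the E2F letters TTTGGCGC or TTTCGCGC.
Neurod1: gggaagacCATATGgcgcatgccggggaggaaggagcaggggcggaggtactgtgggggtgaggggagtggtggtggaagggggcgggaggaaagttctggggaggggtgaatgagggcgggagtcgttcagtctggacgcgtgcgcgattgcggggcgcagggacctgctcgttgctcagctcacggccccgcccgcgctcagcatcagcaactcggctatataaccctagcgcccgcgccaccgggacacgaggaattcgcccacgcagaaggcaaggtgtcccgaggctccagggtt
Ezh2: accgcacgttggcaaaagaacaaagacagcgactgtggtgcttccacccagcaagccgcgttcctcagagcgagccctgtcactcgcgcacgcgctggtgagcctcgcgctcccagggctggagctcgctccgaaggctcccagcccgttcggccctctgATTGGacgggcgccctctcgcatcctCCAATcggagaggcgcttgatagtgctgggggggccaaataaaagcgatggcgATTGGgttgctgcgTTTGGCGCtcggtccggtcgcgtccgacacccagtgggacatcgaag
Hes6: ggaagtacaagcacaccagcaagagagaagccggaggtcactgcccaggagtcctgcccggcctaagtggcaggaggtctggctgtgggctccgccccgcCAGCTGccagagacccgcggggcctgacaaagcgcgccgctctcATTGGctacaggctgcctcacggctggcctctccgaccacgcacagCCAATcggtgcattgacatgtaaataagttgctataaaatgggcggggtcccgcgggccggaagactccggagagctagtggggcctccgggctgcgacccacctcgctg
The *Neurod1* window held 1 E-box and neither of the other motifs, the *Hes6* window 1 E-box and 2 CCAAT boxes, and the *Ezh2* window 3 CCAAT boxes and 1 E2F match. Of the 32851 promoters of the same length, 72.3% held an E-box, 37.4% a CCAAT box, and 0.813% the E2F letters, while 3.37% held 3 or more CCAAT boxes. The other *Hes6* window in the table, chr1:91413989-91414288, held 3 E-boxes and neither of the other motifs. The motifs were chosen with the sequences in view, and a match describes letters only.

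Values are TPM, the level of transcripts per length, scaled to a sum of 1000000 in each library. A log2 fold change below is that of reporter-positive over reporter-negative cells on the log2(TPM + 1) scale, which understates differences of genes with low TPM. Genes above 0 TPM numbered 15096 to 16840 per library. The 10 highest genes took up 31.5% of GFP-positive TPM and 5.72% to 9.44% in the other libraries. As a check of the sort, the 14 *Taar* genes other than *Taar1* summed to 86.1 TPM in the GFP-negative, 804.1 TPM in the GFP-positive, 60.8 TPM in the tdTomato-negative, and 3476 TPM in the tdTomato-positive library. The median log2 fold change of all genes with at least 1 TPM in either library was -0.88 in the GFP line (16173 genes) and -0.23 in the tdTomato line (15777 genes), so values of the members are read against these. Libraries were also scaled to equal levels of immature or mature OSN markers, which raises every log2 fold change by 2.35 or 3.06 in the GFP line and by 0.96 or 1.02 in the tdTomato line before the pseudocount, so that a gene lower by less than this turns direction under those scalings.

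Together the 7 genes summed to 307.1 TPM in the GFP-negative, 133.2 TPM in the GFP-positive, 230.2 TPM in the tdTomato-negative, and 140.7 TPM in the tdTomato-positive library. In sorted populations, fewer cells of a type and less RNA of a gene per cell cannot be told apart. *Hes6* and *Insm1* made up most of the sum in every library. In GFP-positive cells, 4 of the 7 were at least 2-fold lower (*Neurog1*, *Neurod1*, *Insm1*, and *Ezh2*), where 45% of all genes were, and 1 (*Kit*) was at least 2-fold higher, where 14.2% of all genes were. In tdTomato-positive cells, 4 of 7 were at least 2-fold lower (*Neurog1*, *Neurod1*, *Lgr5*, and *Ezh2*), against 23.2% of all genes, and 0 were at least 2-fold higher, against 17.2%. The tdTomato count includes *Neurog1* and *Lgr5*, whose levels are low, and with pseudocount 10 it was 1 of 7, against 10.5% of all genes. With libraries scaled to immature or mature OSN markers it was 2 of 7 under both, against 13.9% or 13.0% of all genes. In the GFP line 1 or 0 of 7 were then lower, against 9.34% or 7.52%, and 3 or 5 higher, against 62.9% or 78.4%. Their median log2 fold change was -1.33 in the GFP line, which became positive when libraries were scaled to OSN markers as described below, and -1.34 in the tdTomato line, where it was -0.48 with pseudocount 10 and -0.42 or -0.35 under scaling to immature or mature OSN markers.

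**Figure D1:**
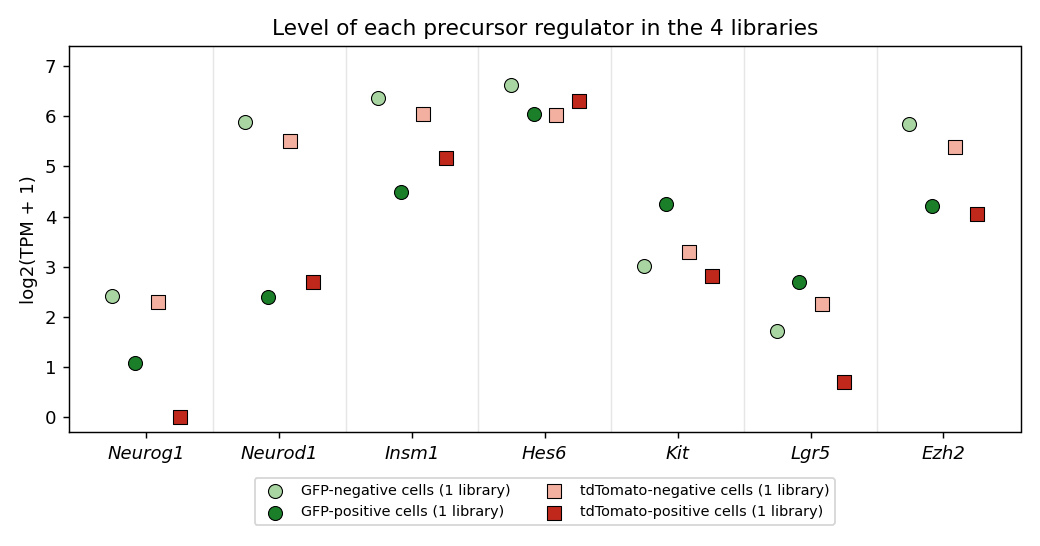
Levels of the 7 genes in the 4 libraries, as log2(TPM + 1) on the y axis, with 1 point per gene and library and no error bars because each group has 1 library. *Neurod1*, at 4.29 and 5.52 TPM in GFP-positive and tdTomato-positive cells, lies well below its reporter-negative points at 58.1 and 44.5 TPM, while the 4 *Hes6* points lie close together.

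*Neurod1*, the proneural factor that drives the late step of neuronal commitment, was lower in both reporter-positive populations. Its level was 58.1 TPM in GFP-negative, 4.29 TPM in GFP-positive, 44.5 TPM in tdTomato-negative, and 5.52 in tdTomato-positive cells. Both reporter-positive libraries were thus below both reporter-negative ones. The ratio of TPM was 13.5-fold lower in GFP-positive and 8.05-fold lower in tdTomato-positive cells, with log2 fold changes of -3.48 and -2.80. Only 4.71% of all genes had a lower log2 fold change in the GFP line and 7.35% in the tdTomato line. *Neurod1* was lower in reporter-positive cells under the main and all 6 alternative pseudocounts and scalings, from -3.73 to -0.67 (log2 fold change) in the GFP line and from -2.99 to -1.80 in the tdTomato line.

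*Neurog1*, the proneural gene that acts before *Neurod1*, had a far lower level. It was 4.34 TPM in GFP-negative, 1.12 TPM in GFP-positive, and 3.94 TPM in tdTomato-negative cells, and it was listed at 0 in tdTomato-positive cells. The reporter-positive libraries were again the lowest 2 of the 4. The log2 fold change in the GFP line was -1.33, and 32.2% of all genes had a lower one. It was 0.29 or 0.85 when libraries were scaled to immature or mature OSN markers. No fold change is given for the tdTomato line because one library is at 0, its place among the genes at least 2-fold lower there depends on the pseudocount, and the number of reads behind values this low is unknown.

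The related bHLH list held 14 proneural relatives and E proteins, the partners with which proneural factors pair. Of its 8 genes with at least 1 TPM in the GFP line, 5 were at least 2-fold lower and 1 higher, against 45% and 14.2% of all genes, with a median log2 fold change of -1.83 that was 0.45 or 1.15 under scaling to immature or mature OSN markers. In the tdTomato line, 5 of 9 were at least 2-fold lower and 0 higher, against 23.2% and 17.2%. The median there was -1.04, and -0.37 or -0.31 under these scalings. *Nhlh1*, a bHLH gene of young neurons, had 113.7, 24.4, 71.0, and 38.9 TPM in GFP-negative, GFP-positive, tdTomato-negative, and tdTomato-positive cells, the order in which 4 values are given from here on. *Olig2*, a bHLH gene of neural progenitors, had 79.0, 17.4, 63.9, and 25.3 TPM. Both were thus lower in the reporter-positive library of each line. *Neurog2*, *Neurog3*, *Atoh1*, and *Atoh7*, proneural genes of other lineages, were listed at 0 in all 4 libraries.

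In deposited TPM, *Insm1* was lower in both reporter-positive populations, and less so in the tdTomato line. Its level was 80.8 TPM in GFP-negative, 21.4 TPM in GFP-positive, 64.7 TPM in tdTomato-negative, and 35.0 in tdTomato-positive cells. The log2 fold change was -1.87 in the GFP line and -0.87 in the tdTomato line, but both were above 0 under scaling to immature OSN markers (0.43 and 0.069) or mature OSN markers (1.13 and 0.13). *Insm1* and *Neurod1* differed unequally within each library. *Insm1* had 1.39 times the TPM of *Neurod1* in GFP-negative and 1.45 times in tdTomato-negative cells, but 5.0 times in GFP-positive and 6.34 times in tdTomato-positive cells.

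*Insm1* acts through the corepressor complex of the demethylase *Kdm1a* and the Rcor proteins. Of 10 listed partners, 6 were at least 2-fold lower in GFP-positive cells and 0 higher, where 45% and 14.2% of all genes were. The median log2 fold change was -1.28 (0.98 or 1.68 under scaling to immature or mature OSN markers). In tdTomato-positive cells, 2 were lower and 1 higher, against 23.2% and 17.2% of all genes, and the median was 0.01. *Rcor2*, the corepressor subunit typical of neural progenitors, was among the lower genes of both lines, at 25.3, 1.85, 19.5, and 4.84 TPM. Its log2 fold changes were -3.20 and -1.81.

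The levels of *Hes6* in deposited TPM lay close together. It was 97.9 TPM in GFP-negative, 65.3 TPM in GFP-positive, 63.8 TPM in tdTomato-negative, and 78.0 in tdTomato-positive cells. The reporter-positive values lay between the reporter-negative ones. The log2 fold change was -0.58 in the GFP line, where it was 0.30, 1.75, or 2.45 under median-ratio scaling or scaling to immature or mature OSN markers, and 0.28 in the tdTomato line. *Hes6* held 31.9% of the summed TPM of the 7 genes in GFP-negative, 49.0% in GFP-positive, 27.7% in tdTomato-negative, and 55.4% in tdTomato-positive cells.

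*Hes1*, the Notch target that *Hes6* opposes, was higher in both reporter-positive libraries, at 22.1, 69.5, 16.6, and 63.8 TPM. Accordingly, the ratio of *Hes6* to *Hes1* was 4.43 and 3.86 in GFP-negative and tdTomato-negative cells and 0.940 and 1.22 in GFP-positive and tdTomato-positive cells. The 20 listed genes of the Notch pathway and the Hes and Id repressors did not differ in 1 direction. Of 19 genes with at least 1 TPM in the GFP line, 3 were at least 2-fold lower and 5 higher, against 45% and 14.2% of all genes. Of 20 in the tdTomato line, 5 were lower and 4 higher, against 23.2% and 17.2%. *Hey1*, another Notch target, was at 18.3, 122.3, 29.7, and 49.2 TPM, whereas *Mfng*, a modifier of Notch receptors, was at 47.5, 6.22, 42.0, and 6.73 TPM.

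The receptors *Kit* and *Lgr5* differed in opposite directions in the 2 lines. *Kit*, the receptor tyrosine kinase for stem cell factor, had 7.09 TPM in GFP-negative, 18.0 TPM in GFP-positive, 8.83 TPM in tdTomato-negative, and 6.08 in tdTomato-positive cells. GFP-positive cells had the highest level, and the other 3 libraries lay close to each other. The log2 fold change was 1.23 in the GFP line (2.54-fold in TPM), and it was -0.47 in the tdTomato line, where it was 0.36 or 0.40 under scaling to immature or mature OSN markers.

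*Lgr5*, the receptor for R-spondins that amplifies Wnt signalling, had 2.31 TPM in GFP-negative, 5.47 TPM in GFP-positive, 3.76 TPM in tdTomato-negative, and 0.627 in tdTomato-positive cells. GFP-positive cells were again the highest, and tdTomato-positive cells were the lowest. The log2 fold change was 0.96 in the GFP line and -1.55 in the tdTomato line, and neither direction turned under the 6 alternatives. The size varied, from 0.33 to 3.49 in the GFP line and from -2.41 to -0.37 in the tdTomato line. All 4 levels are low, and their read depth is unknown.

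Of all 16917 genes that reached 1 TPM in 1 or more libraries, 6.47% were higher in GFP-positive and lower in tdTomato-positive cells, as were 2 of the 7 members (*Kit* and *Lgr5*). Lower in GFP-positive and higher in tdTomato-positive cells were 20.4% of all genes and 1 member (*Hes6*). At least 2-fold lower in both lines were 13.7% of all genes and 3 members (*Neurog1*, *Neurod1*, and *Ezh2*). At least 2-fold higher in both were 7.48% of all genes and 0 members. The count of 3 depends on the settings. With pseudocount 10, *Neurog1* in the GFP line (-0.37) and *Ezh2* in the tdTomato line (-0.99) fell short of 2-fold. Under scaling to immature or mature OSN markers, both were above 0 in the GFP line, and *Neurod1* there was at -1.33 or -0.67.

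**Figure D2:**
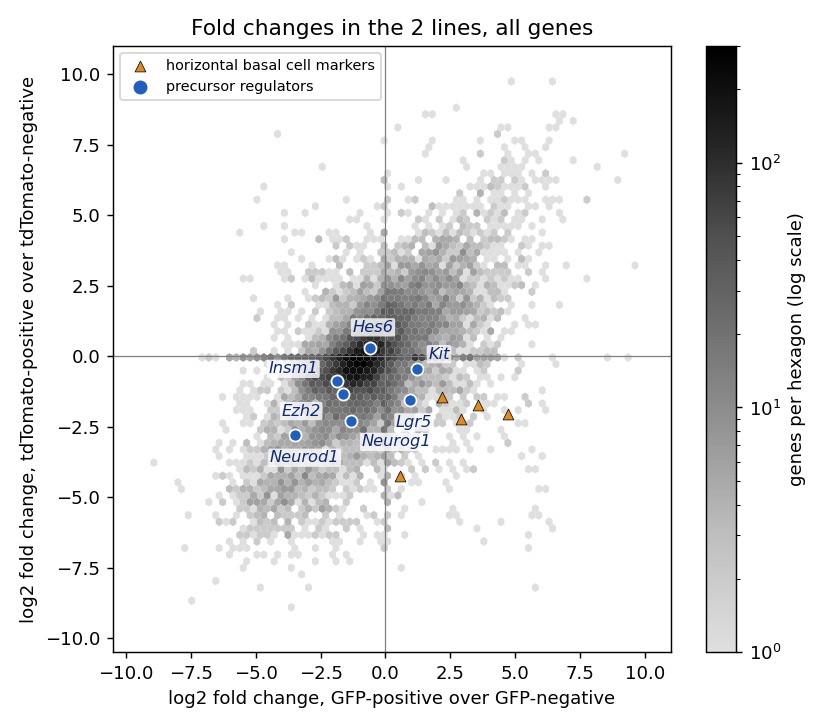
Log2 fold changes (log2(TPM + 1) scale, reporter-positive over reporter-negative) in the GFP line (x axis) and the tdTomato line (y axis). Blue points are the 7 genes, orange triangles the 5 horizontal basal cell markers, and grey hexagons count all 16917 genes that reached 1 TPM in 1 or more libraries. *Neurod1* lies at -3.48 and -2.80, and *Kit* and *Lgr5* lie right of 0 and below 0 with the 5 markers, though *Kit* moves above 0 on the y axis under scaling to OSN markers.

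The 5 markers of horizontal basal cells differed in the directions of *Kit* and *Lgr5*. Their summed level was 63.0 TPM in GFP-negative, 629.2 TPM in GFP-positive, 151.6 TPM in tdTomato-negative, and 29.1 in tdTomato-positive cells, and the median log2 fold change was 2.90 and -2.04. The basal keratin gene *Krt5* was at 15.7, 199.6, 56.5, and 16.5 TPM, and the stem cell factor *Trp63* at 3.70, 20.2, 6.98, and 1.92 TPM. The ratio of *Kit* to *Krt5* was 0.450 in GFP-negative, 0.0904 in GFP-positive, 0.156 in tdTomato-negative, and 0.369 in tdTomato-positive cells, so the 2 genes did not differ in proportion. The part of horizontal basal cells in the values of *Kit* and *Lgr5* was not tested.

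Cells outside the epithelial lineage can also carry *Kit*. Of 8 mast cell markers, 5 were above 0 in any library, and the defining genes *Mcpt4*, *Tpsb2*, and *Fcer1a* were listed at 0 in all 4. *Cpa3*, a mast cell protease gene, was at 8.41 TPM in GFP-negative cells and listed at 0 in the other 3. The list summed to 129.3, 168.1, 137.5, and 348.2 TPM, and without *Hdc*, chosen after its values were seen, to 19.3, 0.458, 0.0636, and 0.0549 TPM. The melanocyte genes *Dct*, *Tyr*, *Tyrp1*, and *Mlana* were listed at 0 in all 4 libraries, and the 6 melanocyte markers summed to 4.68, 3.18, 8.74, and 1.60 TPM. In GFP-positive cells, where *Kit* was highest, the only melanocyte markers above 0 were *Mitf* at 1.28 TPM and *Pmel* at 1.90 TPM. The part of mast cells and melanocytes in the values of *Kit* was not tested.

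Of the 9 genes of *Kit* signalling, 5 were at least 2-fold lower and 1 higher in GFP-positive cells, shares close to the 45% and 14.2% of all genes. The median log2 fold change of -1.38 became 0.71 or 1.39 under scaling to immature or mature OSN markers. In tdTomato-positive cells 1 was lower and 0 higher, against 23.2% and 17.2%, with a median of -0.08 that turned above 0 under these scalings and under median-ratio scaling. The gene higher in GFP-positive cells was that of the ligand, *Kitl*, at 1.99, 19.4, 7.41, and 8.31 TPM. *Ptpn6*, a phosphatase that restrains the receptor and is abundant in blood cells, was the lowest by log2 fold change, at 202.4, 26.0, 122.3, and 30.9 TPM.

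The list of *Lgr5* relatives and Wnt pathway genes held 18 genes. Of 13 with at least 1 TPM in the GFP line, 2 were at least 2-fold lower and 4 higher, against 45% and 14.2% of all genes, with a median log2 fold change of 0.22. Of 14 in the tdTomato line, 4 were lower and 3 higher, against 23.2% and 17.2%, with a median of 0.52. The related receptor *Lgr6* did not share the order of *Lgr5*. It was listed at 0 in GFP-negative cells and had 18.6 TPM in GFP-positive, 1.30 TPM in tdTomato-negative, and 48.3 in tdTomato-positive cells. *Lgr4*, the broadly expressed relative, was at 16.2, 25.2, 23.1, and 45.4 TPM. Of the R-spondin ligand genes, *Rspo1*, *Rspo2*, and *Rspo3* were listed at 0 in all 4 libraries, and *Rspo4* had 1.35 TPM in tdTomato-positive cells and was listed at 0 in the other 3. *Tcf7*, a Wnt effector that is also a T cell gene, was at 40.9, 0.887, 68.0, and 2.22 TPM.

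*Ezh2* was lower in both reporter-positive populations. Its level was 56.7 TPM in GFP-negative, 17.5 TPM in GFP-positive, 40.7 TPM in tdTomato-negative, and 15.5 in tdTomato-positive cells, so both reporter-positive libraries were below both reporter-negative ones. TPM was 3.24-fold lower in the GFP line and 2.63-fold lower in the tdTomato line. A lower log2 fold change was held by 23.2% of all genes in the GFP line and 17.4% in the tdTomato line. The log2 fold change of -1.64 in the GFP line was 0.64 or 1.34 under scaling to immature or mature OSN markers, whereas that of -1.34 in the tdTomato line kept its direction in all settings (-1.39 to -0.35).

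*Ezh1*, the related methyltransferase typical of cells that no longer divide, was at 46.7, 26.2, 49.9, and 65.5 TPM. The ratio of *Ezh2* to *Ezh1* was 1.21 in GFP-negative, 0.668 in GFP-positive, 0.816 in tdTomato-negative, and 0.236 in tdTomato-positive cells, and was thus lower in the reporter-positive library of each line. Of 11 other genes of the complex and of H3K27 demethylases with at least 1 TPM in the GFP line, 7 were at least 2-fold lower and 0 higher, against 45% and 14.2% of all genes, with a median log2 fold change of -1.28 (0.99 or 1.69 under scaling to immature or mature OSN markers). In the tdTomato line 2 of 12 were lower, a share below the 23.2% of all genes, and 0 higher, with a median of -0.29 that was also above 0 under these scalings. The core subunit *Suz12* was at 92.2, 31.2, 92.0, and 39.1 TPM, and the other, *Eed*, at 64.1, 25.2, 80.7, and 43.5 TPM.

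The cell cycle list, 24 genes of replication and mitosis, was lower in both lines. In each line 16 of 24 were at least 2-fold lower, where 45% of all genes were in the GFP line and 23.2% in the tdTomato line, 11 of them in both, and 1 in the GFP line and 0 in the tdTomato line were higher. The summed level was 827.9 TPM in GFP-negative, 348.9 TPM in GFP-positive, 604.7 TPM in tdTomato-negative, and 279.7 in tdTomato-positive cells. The median log2 fold change was -1.25 in the GFP line, where it was 0.98 or 1.63 under scaling to immature or mature OSN markers. In the tdTomato line the median was -1.73, and -0.88 or -0.79 under these scalings. *Mki67*, a marker of dividing cells, was at 30.5, 7.90, 23.4, and 1.56 TPM, so the ratio of *Ezh2* to *Mki67* was 1.85, 2.22, 1.74, and 9.93.

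Lymphocyte and B cell precursor markers, many of whose cells divide and can carry *Ezh2*, also differed in this direction. Of 11 genes in the GFP line, 10 were at least 2-fold lower and 0 higher, against 45% and 14.2% of all genes. Of 10 in the tdTomato line, 8 were lower and 1 higher, against 23.2% and 17.2%. The markers had median log2 fold changes of -4.80 in the GFP line and -4.54 in the tdTomato line. Their sum was 949.9, 87.8, 558.9, and 544.3 TPM, and without *Vpreb3*, chosen after its values were seen, it was 881.3, 6.03, 517.1, and 11.1 TPM. *Ptprc*, the gene of the leukocyte antigen CD45, was at 178.3, 3.14, 194.0, and 1.42 TPM. Their part in the values of *Ezh2* and the other members was not tested.

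**Figure D3:**
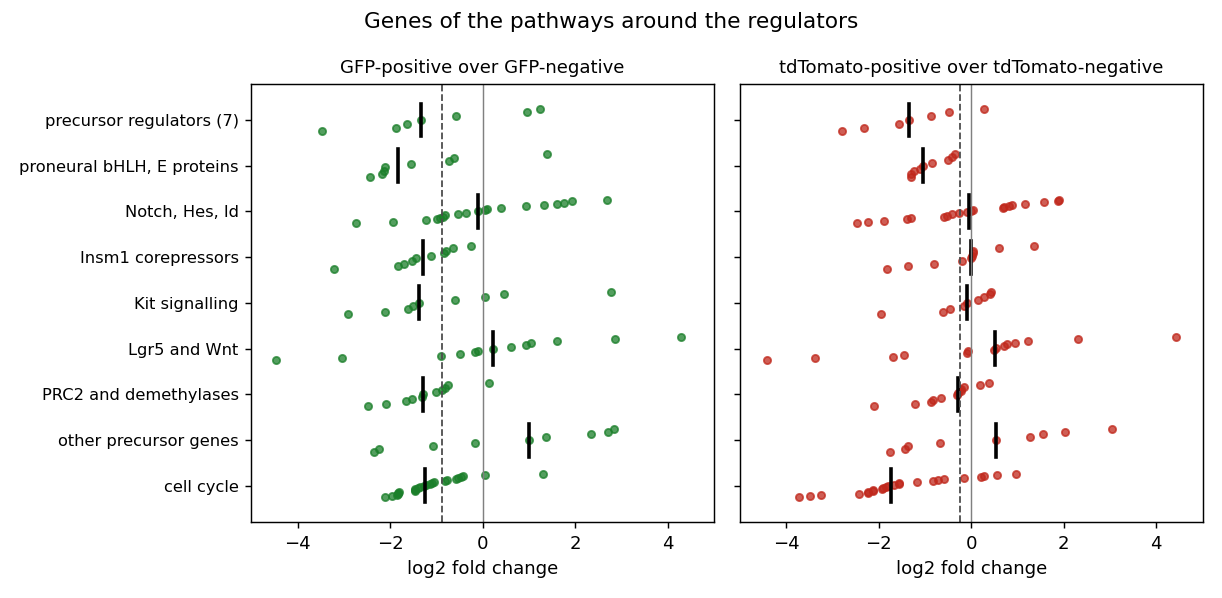
Log2 fold changes (log2(TPM + 1) scale, x axis) of the pathway lists (rows) in the GFP line and the tdTomato line, with 1 point per gene with at least 1 TPM in either library of the line. Black bars are list medians and the dashed line is the median of all genes (-0.88 and -0.23). The cell cycle median was -1.25 in the GFP line, where scaling to OSN markers turned it above 0, and -1.73 in the tdTomato line.

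Other genes of globose basal cells and precursors did not share 1 direction. Of 9 listed, 3 were at least 2-fold lower and 5 higher in the GFP line (median log2 fold change 1.00), against 45% and 14.2% of all genes. In the tdTomato line 3 were lower and 4 higher (median 0.54), against 23.2% and 17.2%. *Sox2*, a stem cell factor of basal cells that sustentacular cells also use, was at 14.4, 108.3, 17.2, and 148.5 TPM. *Cxcr4*, a chemokine receptor of precursors and leukocytes, was at 150.1, 28.8, 160.0, and 61.5 TPM, and *Sox11*, a factor of young neurons, at 44.5, 8.67, 55.7, and 15.9 TPM. *Sox2* was thus higher, and *Cxcr4* and *Sox11* were lower, in deposited TPM of the reporter-positive library of each line.

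Markers of the cells that precursors give rise to were lower as well in deposited TPM. The marker counts that follow are read against the same shares of all genes. All 10 immature OSN markers were at least 2-fold lower in GFP-positive cells and 4 of 10 in tdTomato-positive cells, with sums of 3157, 619.7, 2672, and 1475 TPM and median log2 fold changes of -2.38 and -0.94. All 12 mature OSN markers were at least 2-fold lower in GFP-positive cells and 6 of 12 in tdTomato-positive cells, with sums of 27841, 3065, 28641, and 12861 TPM and medians of -3.02 and -1.02. Scaling to either OSN list sets that list's own difference to about 0 by construction, and scaling to the mature list put the immature median at 0.62 and 0.08. The ratio of *Neurod1* to *Gap43*, a gene of growing axons in immature OSNs, was 0.123, 0.0398, 0.147, and 0.0277. The ratio of *Neurod1* to *Omp*, the olfactory marker protein gene of mature OSNs, was 0.00606, 0.00387, 0.00440, and 0.00125. *Neurod1* was therefore lower relative to both genes in the reporter-positive library of each line.

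Markers of other, non-neuronal cells differed by list and by line. All 7 sustentacular markers were at least 2-fold higher in GFP-positive cells, and 3 of 7 were higher and 2 lower in tdTomato-positive cells, with sums of 1437, 13676, 2456, and 12931 TPM. All 7 Bowman gland markers were higher in GFP-positive and 6 of 7 in tdTomato-positive cells, with sums of 1734, 69597, 233.6, and 2066 TPM. All 9 multiciliated cell markers in the table were higher in GFP-positive and 8 of 9 in tdTomato-positive cells, with sums of 455.0, 1991, 435.2, and 6460 TPM. Microvillar and ionocyte markers summed to 186.5, 666.4, 893.2, and 652.2 TPM, with 2 of 9 lower and 5 higher in the GFP line and 5 of 10 lower and 0 higher in the tdTomato line. Olfactory ensheathing cell markers summed to 37.5, 9.81, 19.2, and 57.5 TPM, with 3 of 4 lower and 1 higher in the GFP line and 1 of 4 lower and 3 higher in the tdTomato line. The part of these cells in the values of the 7 genes was not tested.

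**Figure D4:**
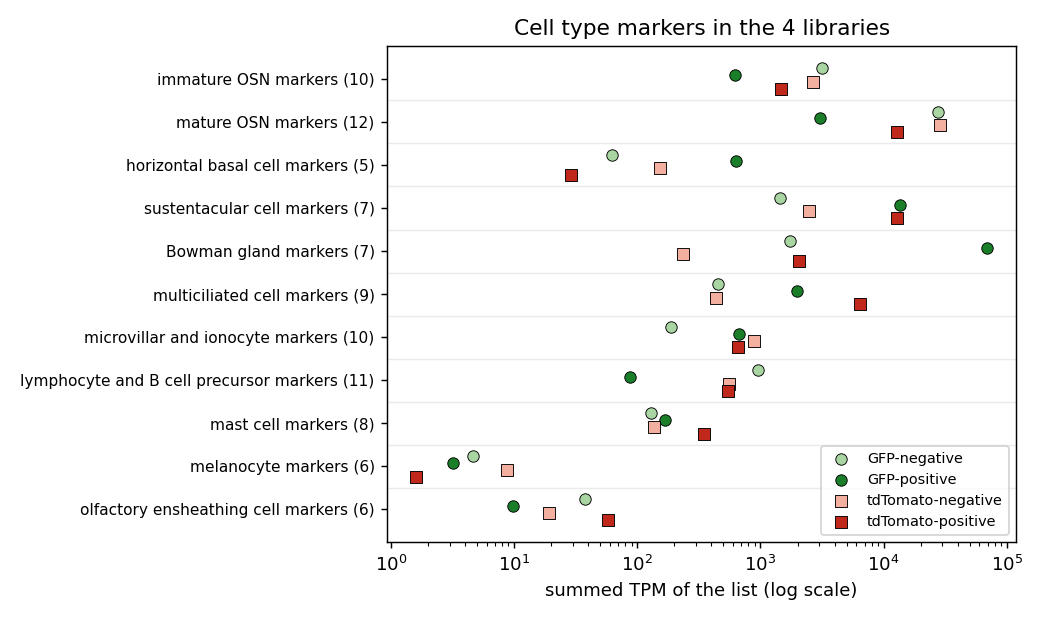
Summed TPM of each cell type marker list (log axis) in the 4 libraries, 1 point per library and no error bars. Horizontal basal cell markers are highest in GFP-positive cells (629.2 TPM) and lowest in tdTomato-positive cells (29.1 TPM), while mature OSN markers are lowest in GFP-positive cells (3065 TPM).

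The reporter-negative populations of the 2 lines were also compared. The log2 ratio of tdTomato-negative over GFP-negative cells ran from -0.61 (*Hes6*) to 0.52 (*Lgr5*). The median of the members was -0.32, against 0.05 for all genes. Of the 7 genes, 0 differed by 2-fold or more, where 23.8% of all genes did. Between the reporter-positive populations, 3 of 7 differed by at least 2-fold, where 46.7% of all genes did. All 3 (*Neurog1*, *Kit*, and *Lgr5*) were lower in tdTomato-positive cells. *Neurog1* was at 1.12 TPM in GFP-positive and 0 in tdTomato-positive cells, so its place depends on the pseudocount. *Lgr5* was also low, at 5.47 and 0.627 TPM. The log2 ratios of tdTomato-positive over GFP-positive cells were -1.43 for *Kit* and -1.99 for *Lgr5*, against 0.30 for *Neurod1* and -0.17 for *Ezh2*, and the median of all genes was 0.69.

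**Figure D5:**
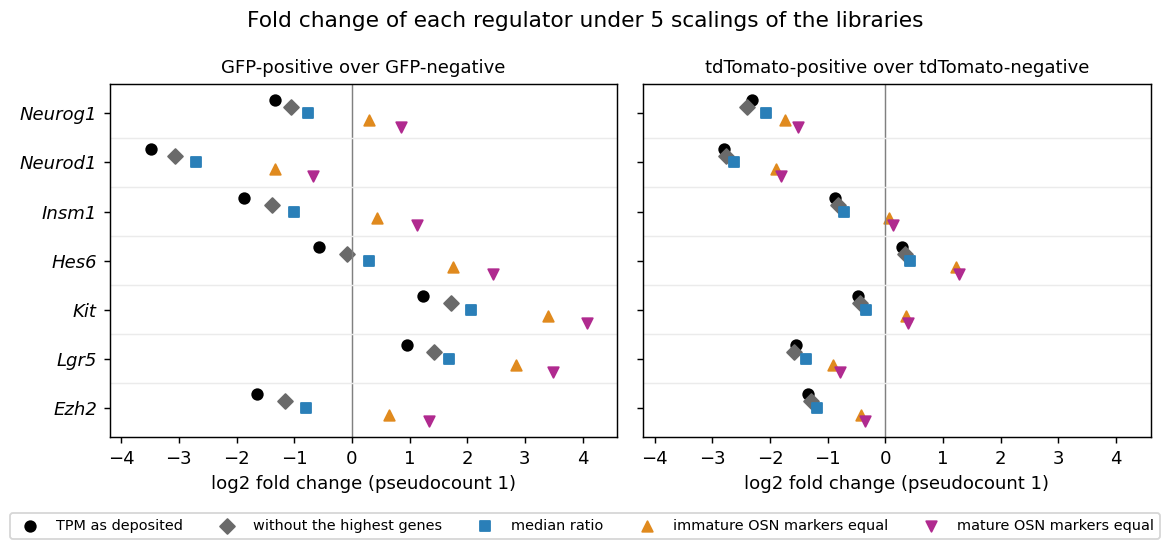
Log2 fold change of each of the 7 genes (x axis) in the GFP line and the tdTomato line under the deposited TPM and 4 other scalings, with pseudocount 1. *Neurod1* stays below 0 under every scaling in both lines, whereas *Neurog1*, *Insm1*, *Hes6*, and *Ezh2* in the GFP line and *Insm1* and *Kit* in the tdTomato line cross 0 under scaling to OSN markers, *Hes6* also under median-ratio scaling.

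By pattern over the 4 libraries, the members were not one group. The measure was the distance between log2(TPM + 1) profiles after each gene's own mean was subtracted, taken from each member to the other members and to the 14607 genes that reached 5 TPM in 1 or more libraries. *Neurog1*, which did not reach 5 TPM, was kept as a member. The closest members were *Insm1* and *Ezh2*, at a distance of 0.62, followed by *Neurog1* and *Ezh2* at 0.77 and *Kit* and *Lgr5* at 0.80. The farthest were *Kit* and *Neurod1*, at 3.76. Many genes lay closer to a member than any other member did. The genes nearest to *Neurod1* were *St8sia4* (0.11), *Plcb2* (0.19), and *Zeb2* (0.19), and those nearest to *Ezh2* were *B330016D10Rik* (0.10), *Eif2s3y* (0.11), and *Stat5b* (0.13). Nearest to *Neurog1* were *Cxcl16* (0.07), *Tpx2* (0.16), and *Sema4a* (0.18), and nearest to *Insm1* were *Dtd1* (0.05), *Zfp386* (0.05), and *Rhebl1* (0.08). For *Hes6* they were *Exosc9* (0.05), *Slc7a1* (0.05), and *Ndufb9* (0.06), for *Kit* they were *Efs* (0.09), *Mgll* (0.23), and *Slfn9* (0.25), and for *Lgr5* they were *Mmp14* (0.25), *Slc31a2* (0.34), and *Rab29* (0.35). With 4 libraries, such likeness is a description of these libraries only.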

How the data were processed

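RNA-seq values of 4 libraries were used as deposited. The authors deposited TPM values per gene symbol, which keep no read depth, so no intervals or detection limits were calculated. The submitters' processing notes name Trimmomatic 0.36, Salmon 1.4.0, and mm10, whereas the methods name Hisat2, Cufflinks, and featureCounts, and the labels name Vazyme RNA and library kits where the methods give RNeasy and Smart-seq2. The series text names tdTomato-positive cells for both tdTomato groups, so the groups follow the sample titles. The annotation and strandedness are not given in the sources used here.

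Log2 fold changes used a pseudocount of 1. Counts and medians used genes with at least 1 TPM in either library of a line, and the threshold was 2-fold. Each comparison within a line has 1 library a side, which leaves no replicate error, and a fit over both lines was not run. The members and the 19 lists of pathway and marker genes (208 genes) were chosen with earlier results of these data known. The values of 1 listed gene are not reported here, and 1 listed multiciliated cell gene was not found under its symbol. Named genes are the 7 members, the list genes, and the 3 genes nearest to each member in pattern. Alternatives were pseudocounts of 0.1 and 10, filters of 0 and 5 TPM, thresholds of 1.5-fold and 4-fold, and 4 other scalings, namely median ratio (11943 genes), removal of the 24 highest genes, and equal mean log2(TPM + 1) of 12 mature or 10 immature OSN markers. Calculations were tested on simulated data. Python 3.11.15, NumPy 2.4.6, pandas 2.3.3, and matplotlib 3.10.9 were used.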

Additional observations from a re-analysis of the deposited data

Results flagged for a closer look

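Some genes and lists had opposite directions in the 2 lines. With 1 library per group these differences were not tested. Values are differences of log2 fold changes, GFP line minus tdTomato line. *Lgr5* differed by 2.51, *Kit* by 1.71, and *Hes6* by -0.86. Under scaling to OSN markers *Kit* was higher in both lines, and *Hes6* was higher in both under these and under median-ratio scaling. Only *Lgr5* thus kept opposite directions in all settings, but the size of its difference varied. It ran from 0.70 with pseudocount 10 to 4.28 under scaling to mature OSN markers. The difference of *Kit* ran from 0.94 to 3.68 under the same 2 settings.

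Among the lists, the medians of horizontal basal cell markers differed by 4.94, of microvillar and ionocyte markers by 2.72, of olfactory ensheathing cell markers by -2.48, and of *Insm1* corepressor partners by -1.29. Scaling to immature or mature OSN markers brought the tdTomato-line median of the microvillar and ionocyte markers to -0.071 or -0.0051. The corepressor partners had a median of 0.01 in the tdTomato line, so their direction there rests on a value near 0. Under scaling to immature or mature OSN markers the GFP-line median of the corepressor partners was 0.98 or 1.68 and that of the ensheathing markers 0.31 or 0.86, so both lists were then higher in both lines.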

How the results depend on the processing

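Of 154 log2 values (fold changes, their medians, and differences between the lines) recomputed under alternatives, 29 turned direction, 26 of them under scaling to OSN markers, 2 under median-ratio scaling, and 1 with the highest genes removed. These scalings added 2.35 (immature) or 3.06 (mature) to every log2 fold change of the GFP line and 0.96 or 1.02 in the tdTomato line, median-ratio scaling added 0.88 and 0.16, and removal of the highest genes 0.51 and 0.05, before the pseudocount.

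Under scaling to immature and mature OSN markers, log2 fold changes in the GFP line became 0.64 and 1.34 for *Ezh2*, 0.43 and 1.13 for *Insm1*, and 0.29 and 0.85 for *Neurog1*. The member median became 0.64 and 1.34 and the all-gene median 1.32 and 1.96. In the tdTomato line *Insm1* became 0.069 and 0.13. The difference between the lines became 0.53 and 1.17 for *Hes6*, 0.36 and 1.00 for *Insm1*, 0.56 and 1.13 for *Neurod1*, and 1.06 and 1.69 for *Ezh2* (deposited TPM -0.30), which was also 0.39 under median-ratio scaling and 0.13 with the highest genes removed. *Hes6* in the GFP line became 1.75 and 2.45 (0.30 under median-ratio scaling), *Kit* in the tdTomato line 0.36 and 0.40, and the all-gene median of the tdTomato line 0.68 and 0.74.

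The count of members at least 2-fold lower in the GFP line (4) was 2 with median-ratio scaling, 1 and 0 with immature and mature OSN scaling, and 1 at 4-fold. The count higher (1) was 2 with pseudocount 0.1, median-ratio scaling, removal of the highest genes, or 1.5-fold, 3 and 5 with immature and mature OSN scaling, and 0 with pseudocount 10 or 4-fold. In the tdTomato line the count lower (4) was 1 with pseudocount 10 and 2 with either OSN scaling or 4-fold, and the count higher (0) was 1 with either OSN scaling. The member median was -0.52 in the GFP line and -0.48 in the tdTomato line with pseudocount 10, and -0.42 and -0.35 in the tdTomato line with immature and mature OSN scaling. In the GFP line the percent of all genes at least 2-fold lower and higher was 21.5 and 22.4 with median-ratio scaling, 9.34 and 62.9 with immature and 7.52 and 78.4 with mature OSN scaling. It was 29.3 and 18.5 with the highest genes removed and 24.0 and 6.13 with pseudocount 10, and 16.7 and 7.36 were at least 4-fold lower and higher. In the tdTomato line it was 10.5 and 8.47 with pseudocount 10, 13.9 and 36.7 with immature and 13.0 and 38.4 with mature OSN scaling. There, 35.7 and 23.5 were at least 1.5-fold lower and higher, and 11.4 and 8.20 at least 4-fold.

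Each comparison within a line has 1 library a side, and the labels carry no replicate numbers. No library was left out in turn. A fit of reporter status over both lines, with line as a block, was not run, since the lines carry different enhancers. Depth is unknown, which limits *Neurog1* and *Lgr5* most.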
